A study of Mus musculus with 4 samples.

Results

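Myc and the proteins it shares dimer partners with form a small network of transcription factors, and its transcripts were measured in splenic Esam dendritic cells (DC) that carried or lacked Runx3. The genes described are Myc, its obligate partner Max, the antagonists Mxd1, Mxd3, Mxd4, Mxi1 and Mnt, the Max-like factor Mlx, and Lratd2, a gene near Myc on mouse chromosome 15. These 9 genes were chosen by name from 19938 genes with a probe set of their own on the array, of which 9894 reached a log2 value of 6.5 on at least 1 array, the study's limit for signal above background. Each gene was read from the brightest probe set that carries its symbol alone. The genes were chosen with their difference between genotypes already known, so that difference is given below as a description, with no test.

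The study deleted Runx3, a transcription factor of the Runt family, to ask which genes of Esam DC depend on it. RNA came from 4 mice of 6 weeks, 1 array each. The 2 wt mice are labelled DCRunx3 +/+ and the 2 cKO mice DCRunx3 -/-, and each of 2 litters gave 1 mouse of each genotype. According to the study's methods the deletion combined Runx3 fl/fl alleles with a CD11c-Cre transgene, which acts in CD11c-expressing cells from the DC precursor stage on and therefore also before the sorted cells are mature. Whether the wt mice carried floxed alleles without Cre is not given for these arrays. Cells were sorted as CD11c+ and MHCII+ using Esam, CD4 and CD8. The study describes the cells of this comparison as CD4+ DC with high Esam, as opposed to those with low Esam. Values are log2 RMA values, on which a difference of 1 is a doubling, and differences are cKO minus wt.

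Several facts of the whole series touch these values. All mice are labelled male, whereas Xist, the RNA of the inactive X chromosome, stood at 12.75 and 12.78 in litter 1 but at 5.15 and 5.19 in litter 2, and 3 genes of the Y chromosome (Kdm5d, Eif2s3y and Uty) were high in litter 2 instead. Litter and this sex-linked split cannot be told apart, but each genotype held 1 array of each kind. Runx3 itself averaged 11.44 ± 0.10 on the wt arrays and 11.46 ± 0.01 on the cKO arrays (SD, n = 2). No source used here says whether this probe set lies in the deleted part, and the genotypes therefore stand as labelled. By Western blot, the study reports that Runx3 protein was absent from CD4+ DC of mice with the CD11c-Cre deletion. The array medians lay between 6.58 and 6.62. Across the 9894 genes the median difference was -0.03, with -0.06 in litter 1 and 0.01 in litter 2.

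Myc drives growth and division by binding, as a dimer with Max, to E-box elements in the promoters of genes for ribosome production, nucleotide synthesis, nutrient uptake and the cell cycle. Mxd proteins, Mxi1 and Mnt compete for Max, bind the same elements and recruit Sin3 corepressor complexes with histone deacetylases, and they are commonly present in cells that leave the cycle. Mlx forms a parallel branch with the Mondo proteins, which sense glucose-derived metabolites. Of the Myc family, conventional DC are known for expressing Mycl, whereas Myc itself is better known from dividing progenitors.

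The E-box that Myc-Max dimers prefer reads CACGTG, the same on both strands. RefSeq promoter windows of 300 bases (250 before the start and 50 after, GRCm38.p6) were at hand for 7 of the 9 genes, and Myc and Lratd2 were not among them. An E-box lay in a window of 4 of these 7, Max, Mxd4, Mnt and Mlx, against 8.09% of all 27025 genes with a window and 7.15% of all 32851 windows. These shares include genes that were not tested on the array, and the share among tested genes was not computed. The stretches are shown because the E-box is where the network's own products can meet its genes, each 5′ to 3′ on the gene's strand with the E-box in capitals. In Max (chr12:76962221-76962276, minus strand) it began 3 bases before the start, in Mxd4 (chr5:34187899-34187954, minus) 219 bases, in Mnt (chr11:74830776-74830831, plus) 123 bases and in Mlx (chr11:101087225-101087280, plus) 40 bases before it.
Max: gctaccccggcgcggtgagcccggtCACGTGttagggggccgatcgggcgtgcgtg
Mxd4: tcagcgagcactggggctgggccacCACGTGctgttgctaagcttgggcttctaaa
Mnt: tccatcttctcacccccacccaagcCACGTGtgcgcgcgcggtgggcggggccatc
Mlx: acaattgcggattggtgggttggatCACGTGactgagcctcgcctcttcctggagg
The letters TGTGGT, the core that Runx factors recognise, were read on either strand and can share up to 2 bases with an E-box. They were found in 0 of the 9 windows of these 7 genes and in 16.8% of all windows. So few windows make a count of 0 uninformative. Sites outside the windows, and any site of Myc or Lratd2, were not read, so nothing follows about Runx3 at these genes.

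Myc was at 10.44 and 10.30 on the wt arrays and at 9.23 and 9.11 on the cKO arrays. Both cKO arrays lay under both wt arrays, 1.07 apart at the nearest. The group values were 10.37 ± 0.10 and 9.17 ± 0.08 (SD, n = 2), a difference of -1.20, or 2.30-fold lower in cKO. Within litters the differences were -1.21 and -1.18. These values are those on which Myc was chosen. In bulk RNA of sorted cells, fewer Myc-expressing cells and less Myc RNA per cell cannot be told apart.

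**Figure D1:**
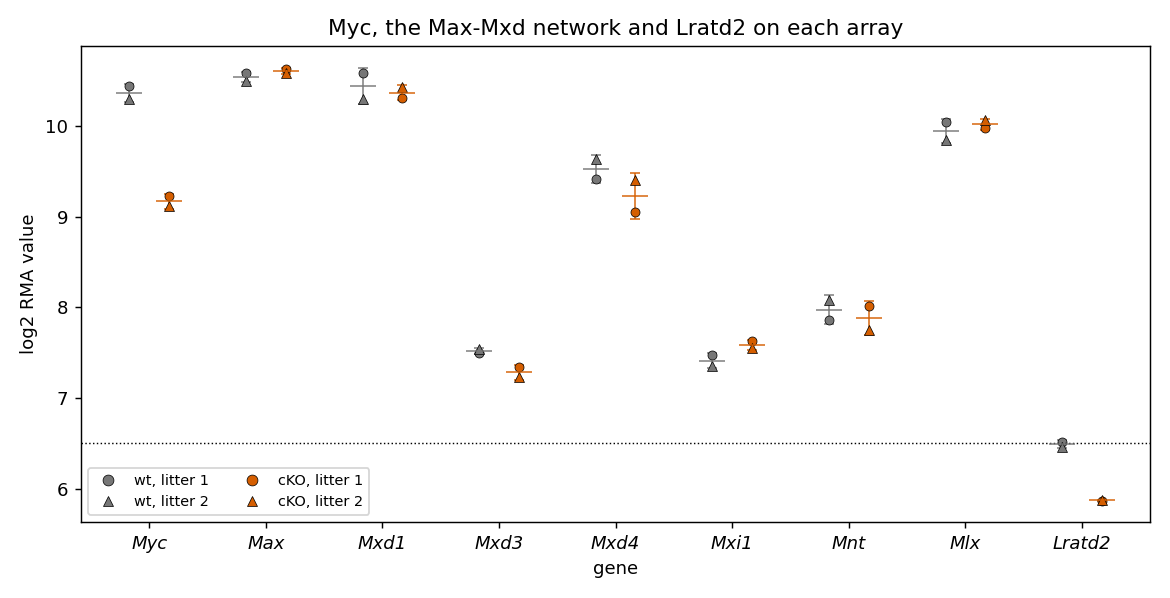
Log2 RMA values of the 9 genes on each of the 4 arrays. Grey is wt and orange cKO, circles are litter 1 and triangles litter 2, and the bar with whiskers is the mean with SD of 2 arrays. The dotted line is the limit of 6.5. Myc lies at 10.30 and 10.44 in wt and at 9.11 and 9.23 in cKO, Lratd2 straddles the limit in wt and lies under it in cKO, and the other 7 genes differ by 0.30 or less. Heights of different genes are not comparable, since each has its own probe set.

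Max, without which Myc does not bind its sites, was at 10.58 and 10.50 in wt and at 10.64 and 10.58 in cKO. Its groups did not overlap, but the nearest wt and cKO arrays were 0.0027 apart, and the difference was 0.07. Its level on these arrays was thus steady while that of Myc was not: the range over 4 arrays was 0.13 for Max and 1.33 for Myc. Over all 9894 genes the median range was 0.25.

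The Mxd antagonists did not share a direction. Mxd1, induced in many maturing blood cells, was at 10.58 and 10.30 in wt and at 10.31 and 10.43 in cKO. These arrays overlapped, and the within-litter differences had opposite signs (-0.27 in litter 1 and 0.13 in litter 2). Mxd3, which in contrast to the other Mxd genes is known from cells in S phase, was at 7.49 and 7.54 in wt and at 7.34 and 7.23 in cKO, with within-litter differences of -0.15 and -0.31. Its cKO arrays lay under both wt arrays, 0.15 apart at the nearest, and the group values were 7.52 ± 0.04 and 7.28 ± 0.08 (SD, n = 2).

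Mxd4, an antagonist usually found in resting and differentiated cells, was at 9.42 and 9.63 in wt and at 9.05 and 9.41 in cKO. It was the member with the widest spread between litters. The difference between genotypes was -0.30, with -0.37 and -0.23 within litters, while the wt and cKO arrays nearest to each other were 0.012 apart. After quantile normalization of the deposited columns its groups overlapped, with a difference of -0.27. Mxi1, the Mxd2 protein in another naming, was at 7.47 and 7.35 in wt and at 7.63 and 7.55 in cKO. It was the antagonist that was higher in both litters, by 0.16 and 0.19, and its groups did not overlap.

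Mnt, the broadly expressed antagonist that occupies Max in resting and dividing cells alike, was at 7.86 and 8.09 in wt and at 8.01 and 7.75 in cKO. Its within-litter differences were 0.15 and -0.34, so the arrays showed no shared direction. Mlx was at 10.04 and 9.85 in wt and at 9.97 and 10.06 in cKO, with within-litter differences of -0.07 and 0.21. These 2 genes, like Mxd1, overlapped between genotypes. Of the 4 genes whose promoter E-box is printed above, the differences were 0.07 for Max, -0.30 for Mxd4, -0.09 for Mnt and 0.07 for Mlx.

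Lratd2 encodes a poorly characterised protein with an LRAT domain. Its probe set was at 6.52 and 6.46 in wt and at 5.87 and 5.87 in cKO, a difference of -0.62, or 1.54-fold lower. It reached 6.5 on wt replicate 1 and on no other array, so it entered the tested genes only through the group in which it was high, and its cKO level is no more than a value under the limit. A second probe set of the gene, at 5.15 and 5.10 in wt and at 4.90 and 4.83 in cKO, stayed under the limit on all 4 arrays. With the mean of both probe sets the difference was -0.44.

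Over the 9 genes, both cKO arrays lay under both wt arrays for 4 (Myc, Mxd3, Mxd4 and Lratd2), a pattern that 28.3% of all tested genes showed, and over both for 2 (Max and Mxi1), against 17.1% of all. At the study's thresholds, an absolute fold of 1.5 or more and, by the one-way test of the methods, p up to 0.05, 2 were lower (Myc and Lratd2) and 0 higher. Of all tested genes 0.455% were lower and 1.39% higher at these thresholds. Nothing is read from these counts, since the genes were chosen on this contrast.

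The difference between litters is a contrast that the choice did not use, and it was tested with limma over 18889 probe sets with genotype kept as a term. Of all probe sets, 0.0265% differed between litters at an adjusted p under 0.05, 5 in number, 4 of them Xist and the Y-linked genes named above. None of the 9 genes did (0 also at an unadjusted p under 0.05). Litter 2 minus litter 1 was -0.13 for Myc (95% interval -0.39 to 0.14, limma adjusted p = 0.729). The widest difference was that of Mxd4, at 0.29 (95% interval -0.00 to 0.57, limma adjusted p = 0.638), which was higher in litter 2 in both genotypes. For the other 7 genes the differences ran from -0.10 (Mxi1) to -0.02 (Mnt), with adjusted p from 0.778 to 0.982. These intervals rest on 4 arrays and do not show that the litters were alike.

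**Figure D2:**
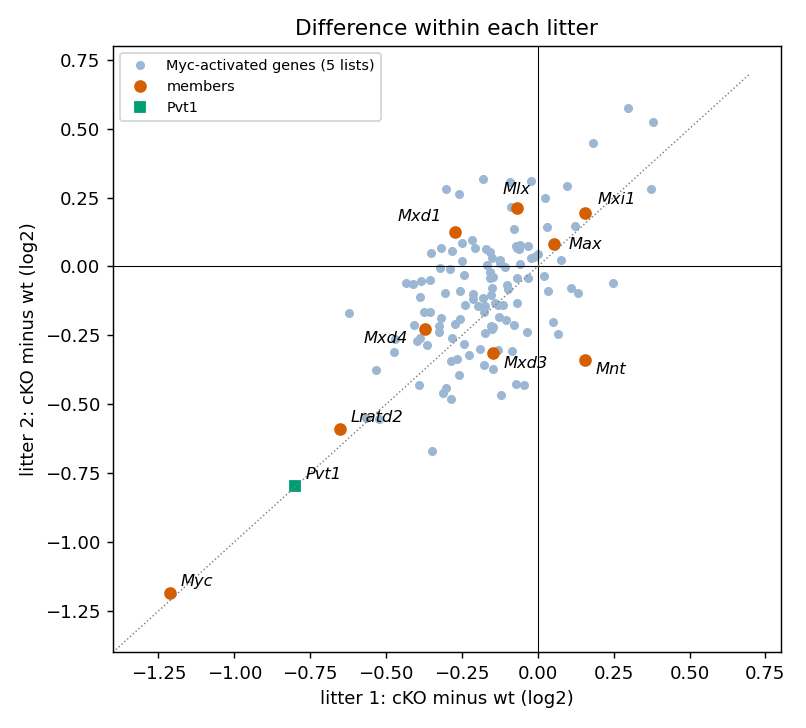
Difference between cKO and wt (log2) in litter 1 (x axis) and litter 2 (y axis). Orange points are the 9 genes, the green square is Pvt1, and pale blue points are the 120 genes of 5 lists of Myc-activated genes. The dotted line marks equal differences. Myc (-1.21 and -1.18), Pvt1 (-0.80 and -0.80) and Lratd2 (-0.65 and -0.59) lie near that line, whereas Mxd1, Mnt and Mlx have opposite signs in the litters.

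Around Myc and Lratd2 on chromosome 15, the genes were read in RefSeq order. Pvt1, the long noncoding RNA gene that follows Myc directly, was at 7.13 and 7.55 in wt and at 6.33 and 6.75 in cKO. Both cKO arrays were under both wt arrays, and the within-litter differences were -0.80 and -0.80, while the mice of 1 genotype differed by 0.42. The difference of -0.80 (SE 0.22) did not pass limma's adjusted threshold (adjusted p = 0.438), nor the study's thresholds. Lratd2 is the tenth gene on the other side. Of the 9 genes between it and Myc, 9930014A18Rik and A1bg stayed under 6.5 on all arrays and the other 7 had no probe set of their own.

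Farther out, the neighbours went either way. Trib1, a pseudokinase gene 25 places before Myc, was at 6.65 and 6.59 in wt and at 7.07 and 7.24 in cKO, higher by 0.54 (adjusted p = 0.296). Sqle, the squalene epoxidase gene of cholesterol synthesis, 29 places before it, was at 8.49 and 8.23 in wt and at 7.62 and 7.45 in cKO, a difference of -0.83 that passed the study's thresholds but not limma's (adjusted p = 0.243). On the far side Tmem71 differed by 0.48 (adjusted p = 0.369). The other 5 tested neighbours (Washc5, Nsmce2, Cyrib, Asap1 and Efr3a) differed by -0.08 to 0.04. The genes between the named ones were not all measured.

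**Figure D3:**
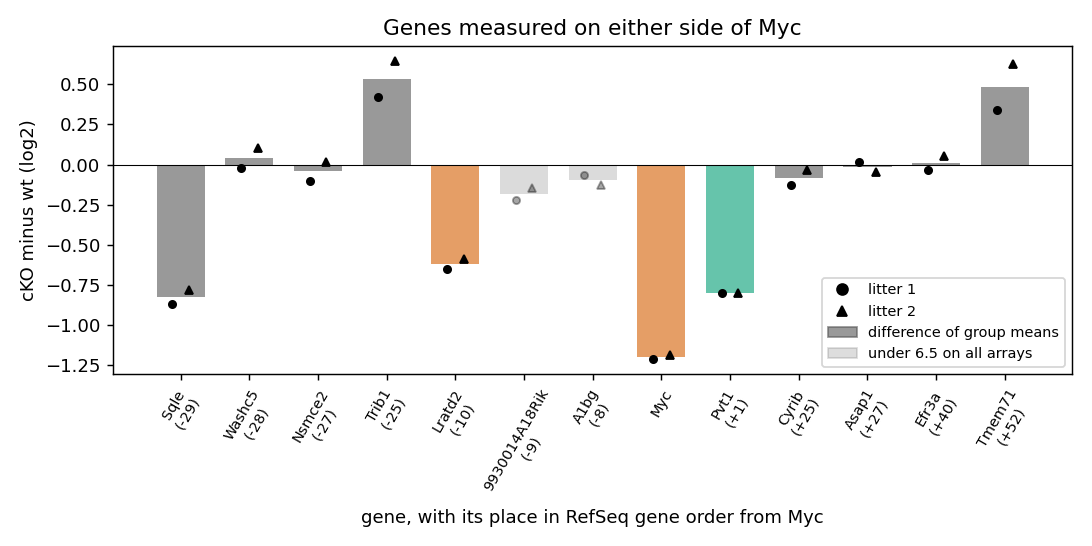
Difference between cKO and wt (log2) for the genes measured on either side of Myc, in RefSeq gene order along chromosome 15 with the number of places from Myc in brackets. Bars are differences of group means, circles litter 1 and triangles litter 2, and pale bars are genes under 6.5 on all 4 arrays. Myc (-1.20), Pvt1 (-0.80) and Lratd2 (-0.62) lie below 0 in both litters, as does Sqle, and Trib1 and Tmem71 lie above it.

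The genes whose pattern over the 4 arrays was most like that of Myc, by the root mean square difference of values centred on each gene's own mean, were Ahrr (0.11), the repressor of the aryl hydrocarbon receptor, Tmem132c (0.12), 2900026A02Rik (0.14), the kinase gene Stk32c (0.14) and the catenin gene Ctnnd2 (0.14). The likeness rests on 4 arrays, in which 1 large step between genotypes decides it. None of these 5 belongs to the network or to a list below. Ahrr was at 7.83 and 7.40 in wt and at 6.54 and 6.32 in cKO, and Ctnnd2 at 11.37 and 11.48 in wt and at 10.39 and 10.44 in cKO.

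The rest of the network and what it acts on were read from 12 lists of genes, of which 202 different genes were tested. At the study's thresholds 1 passed, Gadd45g, and with limma 0 passed after adjustment over all 18889 probe sets, where the smallest adjusted p was 0.238 and 29 had an unadjusted p under 0.05. Over the whole array limma also called 0 probe sets (0%), with 1771 at an unadjusted p under 0.05 and a smallest adjusted p of 0.0834. The lists are therefore described by their counts and medians beside those of all genes, of which 28.3% were lower and 17.1% higher without overlap. Because the lists were written with earlier results of these data known, these counts are a description and not a test.

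Among the other Myc and Mondo relatives 3 of 5 were tested. Mycl, the Myc paralog typical of conventional DC, was at 8.41 and 8.29 in wt and at 8.41 and 8.49 in cKO, a difference of 0.10 (SE 0.09, limma adjusted p = 0.809). The arrays of Mycl did not overlap, yet within litter 1 the difference was 0.00578. Mga, which pairs Max with a further DNA-binding domain, differed by 0.03 and Mlxip, the MondoA partner of Mlx, by -0.06. Mycn and Mlxipl, the latter encoding ChREBP, stayed under 6.5 on all arrays.

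Cofactors differed by small amounts. Of 15 tested Myc coactivators, 7 were lower without overlap (46.7%, against 28.3% of all genes) and 0 higher, with a median of -0.08. By sign 13 of the 15 were lower, where 57.55% of all genes were. Ruvbl2, an ATPase of the TIP60 complex, differed by -0.26 (adjusted p = 0.486), the histone methyltransferase subunit gene Wdr5 by -0.17, the acetyltransferase gene Kat2a by -0.14 and Cdk9, the kinase that releases paused polymerase, by 0.03. Of 11 Sin3 corepressor genes used by the Mxd proteins, 3 were lower without overlap (27.3%) and 0 higher, with a median of -0.08. The deacetylase genes Hdac1 and Hdac2 differed by -0.25 and -0.08, the histone-binding gene Rbbp7 by -0.15 and Sap30 by 0.06. Of 18 genes for the turnover of Myc protein, 7 were lower without overlap (38.9%) and 0 higher, and 16 were lower by sign (median -0.10). The ubiquitin ligase gene Trim32 was among the 7, at -0.24. The deubiquitinase genes Usp28, Usp37 and Usp22 differed by -0.20, -0.13 and 0.16. Fbxw7, the best known ligase for Myc and named after its values were seen, differed by -0.14. Protein stability itself was not measured.

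Genes that Myc is known to activate in ribosome production were mostly lower in cKO, by small amounts. Of 33 tested, 23 were lower without overlap, 69.7% against 28.3% of all genes, 0 were higher without overlap, and the median was -0.18 (-0.17 in litter 1 and -0.19 in litter 2). By sign 29 of the 33 were lower in litter 1 and 29 in litter 2, where 67.5% and 47.9% of all genes were. Bysl, a factor of small ribosomal subunit assembly, was at 8.20 and 8.13 in wt and at 7.67 and 7.76 in cKO. That difference of -0.45 had a standard error of 0.09 and did not pass (limma adjusted p = 0.308). The ribosomal chaperone gene Grwd1 differed by -0.33 and the snoRNP core gene Nop58 by -0.27, whereas Npm1, the abundant nucleolar phosphoprotein nucleophosmin, differed by 0.09 with overlapping arrays. None of the 33 passed the study's thresholds.

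Nucleotide and polyamine synthesis genes gave a similar count. Of 26 tested, 17 were lower without overlap, 65.4% against the 28.3% of all genes, and 1 was higher, and the median was -0.16 (-0.23 in litter 1 and -0.13 in litter 2). Dhodh and Impdh1 are among the lower ones and reached 6.5 on wt arrays alone. With the limit set on the mean over all 4 arrays, which does not favour genes high in 1 group, 16 of 25 were lower and the median was -0.16. Mthfd1, which supplies one-carbon units for purines, was at 9.15 and 8.90 in wt and at 8.62 and 8.35 in cKO (difference -0.54, adjusted p = 0.443). Along the purine pathway, Ppat, the first committed step, differed by -0.32 and Pfas by -0.37, while Atic, the last step, was the 1 gene higher without overlap, at 0.32. Odc1, the rate-limiting enzyme of polyamine synthesis and a classical Myc target, named after its values were seen, was at 8.07 and 8.01 in wt and at 7.97 and 7.95 in cKO.

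The remaining Myc-activated lists were split. Of 18 genes of glycolysis and transport, 6 were lower (33.3%) and 3 higher (16.7%) without overlap, with a median of -0.00. Among the lower ones, the amino acid transporter gene Slc7a5 was at 10.27 and 10.15 in wt and at 9.71 and 9.59 in cKO (difference -0.56, adjusted p = 0.278), and the transferrin receptor gene Tfrc differed by -0.39. Hexokinase 2, Hk2, differed by -0.38 and the phosphofructokinase gene Pfkp by 0.44. Of 23 translation and mitochondrial genes, 9 were lower without overlap (39.1%) and 0 higher. Their median was -0.06 (-0.13 in litter 1 and 0.01 in litter 2). The arginine methyltransferase gene Prmt3 differed by -0.30, the cofactor gene Pa2g4 by -0.26, the mitochondrial import gene Timm8a1 by -0.51, with cKO arrays at 5.94 and 5.96, under the limit, and the initiation factor gene Eif5a by 0.11.

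Of 20 cell cycle genes that Myc activates, 9 were lower (45%) and 3 higher (15%) without overlap. The median was -0.15 (-0.18 in litter 1 and -0.07 in litter 2). Without wt replicate 1 that median was -0.04. The cyclin genes Ccnd1 and Ccne1 differed by -0.33 and -0.31, with adjusted p of 0.416 and 0.417. In the other direction the kinase gene Cdk6, a partner of cyclin D, differed by 0.45 and the transcription factor gene E2f2 by 0.33. The sorted population can hold proliferating cells in varying share. Of 9 tested markers of such cells, 4 were lower without overlap (44.4%, against 28.3% of all genes) and 0 higher, with a median of -0.14. Their mean level was 10.44 and 10.23 in wt and 10.25 and 10.10 in cKO, and their part in the differences of Myc and its targets was not tested.

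Counted as 1 set, the 5 activated lists held 120 different genes. Of these 64 were lower without overlap (53.3%, against 28.3% of all genes) and 7 higher (5.83%, against 17.1%), with a median of -0.14. Outside this set, the coactivator (46.7%) and turnover (38.9%) lists also lay over the share of all genes, while the Sin3 corepressor list (27.3%) did not. Of the 120, 3 (Dhodh, Impdh1 and Timm8a1) reached 6.5 on wt arrays alone and thus entered only through the group in which they were high. With the limit on the mean over all 4 arrays, 62 of 118 were lower without overlap (52.5%, against 28.4% of all genes) and 7 higher. By sign 103 of the 120 were lower in litter 1 and 82 in litter 2, where 67.5% and 47.9% of all genes were lower. The median was -0.16 in litter 1 and -0.10 in litter 2, and that gap between litters was not tested. At the study's thresholds 0 of the 120 passed. The lists were written with earlier results of these data known.

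**Figure D4:**
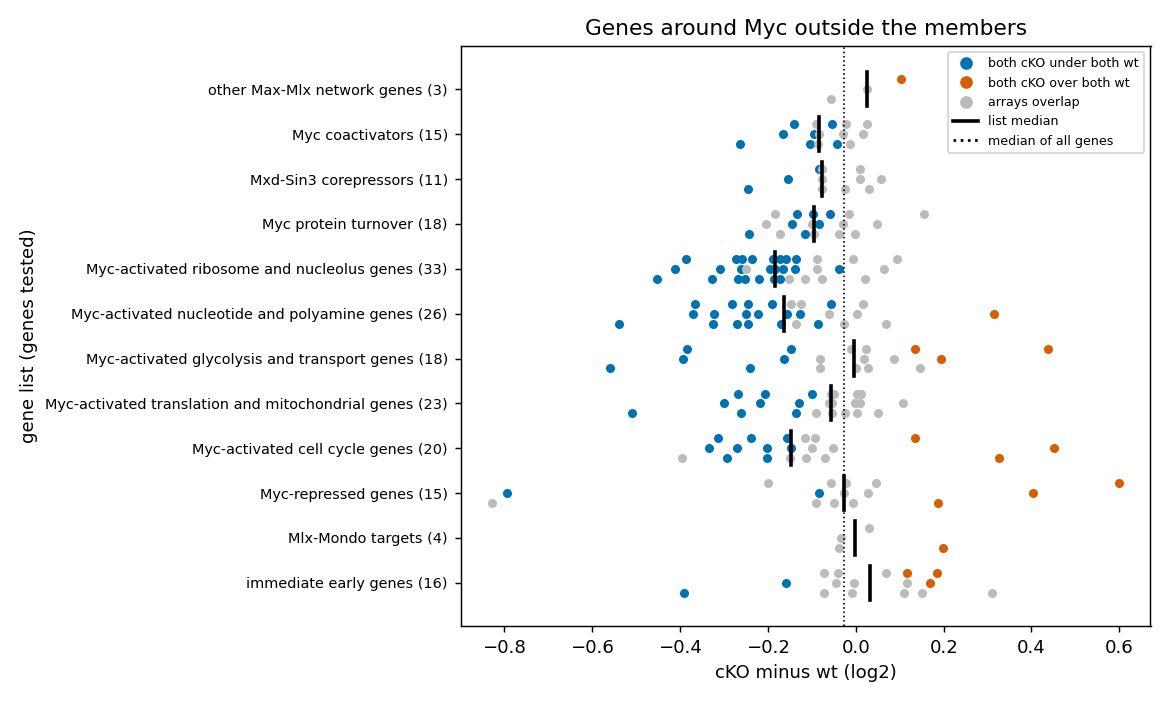
Difference between cKO and wt (log2) for the tested genes of 12 lists around Myc, 1 point a gene, with the number tested in brackets. Blue points have both cKO arrays under both wt arrays, orange points have both over them, grey points overlap, black bars are list medians and the dotted line is the median of all genes (-0.03). The medians of the ribosome (-0.18), nucleotide (-0.16) and cell cycle (-0.15, or -0.04 without wt replicate 1) lists lie left of that line. Those of the turnover (-0.10), coactivator (-0.08), Sin3 corepressor (-0.08) and translation (-0.06) lists also lie left of it. The medians of the other Max-Mlx network, glycolysis, Myc-repressed, Mlx-Mondo and immediate early lists lie between -0.03 and 0.03.

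Promoter E-boxes were counted in the same genes. Of the 120 activated genes 103 had a promoter window, and 23 of these (22.3%) held CACGTG, against 8.09% of all genes. Both cKO arrays were under both wt arrays for 10 of the 23 (43.5%, median -0.09) and for 45 of the 80 without it (56.3%, median -0.15). The 4 activated genes with the smallest unadjusted p among those that had an E-box before the start and were lower without overlap are shown with the E-box in capitals, for comparison with the network's own promoters: Prmt3 (chr7:49778320-49778375, plus strand), Timm8a1 (chrX:134541876-134541920, minus), Nme1, a nucleoside diphosphate kinase gene (chr11:93968260-93968315, minus), and Prmt1, the main asymmetric arginine methyltransferase gene (chr7:44986571-44986626, minus).
Prmt3: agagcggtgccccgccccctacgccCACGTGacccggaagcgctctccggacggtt
Timm8a1: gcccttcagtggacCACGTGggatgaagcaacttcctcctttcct
Nme1: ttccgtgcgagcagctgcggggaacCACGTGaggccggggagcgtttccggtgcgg
Prmt1: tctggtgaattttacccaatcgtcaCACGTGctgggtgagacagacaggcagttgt
Their differences were -0.30 (Prmt3), -0.51 (Timm8a1), -0.37 (Nme1) and -0.27 (Prmt1). A match of letters in a window is a description and not a site shown to be bound.

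Genes that Myc is known to repress did not show the opposite direction as a group. Of 15 tested, 2 were lower without overlap (13.3%, against 28.3% of all genes) and 3 higher (20%, against 17.1%). The median was -0.03, as over all genes. Gadd45g, a growth arrest gene, was at 7.63 and 7.82 in wt and at 7.02 and 6.83 in cKO. Its difference of -0.79 (SE 0.12) passed the study's thresholds and not limma's (adjusted p = 0.238). The lowest difference of the list, -0.83, belonged to another gene, which did not pass the study's thresholds. Higher were the quiescence factor gene Klf2, at 7.51 and 7.90 in wt and at 8.31 and 8.30 in cKO (0.60, adjusted p = 0.416), the stress and growth arrest gene Ndrg1 (0.40, adjusted p = 0.328) and Cebpa, which encodes a myeloid factor that stops division (0.19). With litter as a block no gene of the 12 lists passed the study's thresholds, where the one-way test is left with 1 residual degree of freedom.

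Targets of the Mlx branch differed little between genotypes. Of 4 tested, Arrdc3 differed by 0.20, Txnip, the glucose-induced thioredoxin-binding gene, by 0.03, Klf10 by -0.03 and Arrdc4 by -0.04. Txnip and Arrdc4 followed the litters more than the genotype: Arrdc4 was at 9.70 and 10.28 in wt and at 9.60 and 10.31 in cKO. Immediate early genes are a class induced within minutes of stimulation or cell handling. Of 16 tested, 2 were lower without overlap (12.5%, against 28.3% of all genes) and 3 higher (18.75%, against 17.1%). Their median was 0.03, with 0.22 in litter 1 and -0.12 in litter 2. Atf3 differed by -0.39 (adjusted p = 0.494), Srf by -0.16, Nr4a1 by 0.18 and Junb by 0.17. Over all 18 genes of the list, 2 of them under the limit, the mean level was 8.56 on wt replicate 1 and between 8.73 and 8.89 on the other 3 arrays. Its part in the values of Myc was not tested.

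Markers of the sorted cells and of other cells the gate could hold were read on the same arrays. Of all tested genes 28.3% were lower and 17.1% higher without overlap, and 0.455% were lower and 1.39% higher at the study's thresholds. The 12 markers of splenic cDC2, the class that Esam DC belong to, were at 9.21 or higher on every array and went both ways, 6 higher and 3 lower without overlap, with a median difference of 0.01. Itgam, the CD11b gene, passed the study's thresholds at 0.75, and Esam and Cd4 differed by 0.36 each, Irf4 by -0.26 and Zbtb46 by -0.28. Of 10 cDC1 markers 7 were higher without overlap and 6 passed the study's thresholds, all higher, while Wdfy4 and Batf3 were lower without overlap (-0.29 each), with a median difference of 1.05 and a mean level of 9.49 and 9.33 in wt and 10.18 and 10.16 in cKO. Of 10 tested macrophage markers 8 were higher without overlap and 2 passed the thresholds. Over all 11 with a probe set, 1 of them under the limit, the mean was 8.71 and 9.37 in wt and 9.61 and 9.80 in cKO. All 5 tested monocyte markers were higher without overlap, 3 of them past the thresholds, with means of 9.33 and 9.43 in wt and 10.09 and 10.25 in cKO.

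Of 6 pDC markers 5 were higher without overlap (means 8.20 and 8.14 in wt, 8.53 and 8.60 in cKO), and of 7 B cell markers with a probe set 4 were tested, of which 3 were higher without overlap and 1 (Fcer2a) passed the thresholds, while Pax5, Ebf1 and Vpreb3 stayed under 6.5. Of 6 T cell markers 1 was tested (Thy1, at most 6.55), and the 6 NK cell, 8 neutrophil and 3 erythroid markers with a probe set stayed under 6.5 on all arrays. The part that cells of the higher marker lists had in the lower Myc value was not tested.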

How the data were processed

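RNA of sorted Esam DC was hybridised to 4 Affymetrix arrays. The authors deposited log2 values, made by RMA with GC correction in Partek (the processing notes also name mm9, with no versions). The methods name an exon 1.0 ST array and the platform annotation a gene-level one, so no value is read as an exon. The number of arrays limits the precision.

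Of 35399 probe sets, 21789 carried 1 symbol, 1621 several and 11989 were not listed. By gene ID 21698 matched RefSeq (GRCm38.p6), which also gave gene order and promoter windows. Fits used limma 3.58.1 in R 4.3.3 (lmFit and eBayes, two-sided, Benjamini-Hochberg over the 18889 probe sets at 6.5 or more on at least 1 array), and the methods' one-way test stood beside them. The one-way p-values for genotype rest on the spread between the 2 mice of a group, which also holds the difference between their litters. Limma in addition draws the variance of each probe set towards that of all probe sets. The labels place 1 mouse of each genotype in each litter, and deviations from the group means correlated within litters (r = 0.27), so litter was a block in an alternative.

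The members, the gene lists and the rule for named genes were chosen with earlier results of these data known. Named were all members, up to 4 genes a list with the smallest unadjusted p (at least 1 in each direction where there was one) and any gene past the study's thresholds, the 5 nearest tested neighbours on each side of Myc, the genes between Myc and Lratd2, and the 5 genes most like Myc. Other names are marked or are those of counts of few genes. The procedure was run on simulated data whose arrays were drawn independently, without the likeness within litters seen here. No result above rests on that run.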

Additional observations from a re-analysis of the deposited data

How the results depend on the processing

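The differences between genotypes of Myc and the other 8 members kept their sign under median centring of the arrays and under quantile normalization. The mean of all probe sets could change Lratd2 alone, the only member with more than 1 probe set, and its sign stayed. With 1 mouse of each genotype in each litter, the mean of within-litter differences (litter as replicate block) equals the difference of group means. That setting could therefore change no sign. Myc lay between -1.27 and -1.13 with 1 array left out. Members lower without overlap numbered 4, and 3 after quantile normalization (Mxd4 then overlapped). With 1 array left out they numbered 4 to 5, but removing an array cannot lower this count, so it does not show stability. With 1 array left out Mxd1 (-0.21 to 0.07), Mnt (-0.23 to 0.04) and Mlx (-0.02 to 0.17) took either sign, and Mxd4 ran from -0.48 to -0.12.

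The median of the ribosome list was -0.20 after median centring, -0.16 after quantile normalization, -0.17 with the mean of all probe sets and -0.17 in litter 1 alone (an alternative added after seeing the data, as was litter 2 alone), and ran from -0.20 to -0.16 with 1 array left out. That of the nucleotide list ran from -0.23 to -0.09 (without wt replicate 1), the latter more than 1.5 times nearer to 0. Of the pathway genes 0 passed the study's thresholds with litter as a block, 0 to 1 with 1 array left out (0 without cKO replicate 1 or cKO replicate 2) and 2 with limma's unadjusted p (Gadd45g and Klf2). Limma's adjusted threshold between genotypes called 1 probe set after quantile normalization, 57 genes with the mean of all probe sets per gene and 42 with 1 probe set per gene, 0 of these 42 in the lists. Between litters 13 genes passed with 1 probe set per gene and 0 to 6 probe sets with 1 array left out (0 without wt replicate 1 or cKO replicate 1), where litter stood alone in the fit. The cell cycle median ran from -0.22 to -0.04 (without wt replicate 1), the immediate early median from -0.18 to 0.20 and the Mlx-Mondo median from -0.12 to 0.18. Of 260 other values, 217 moved by less than a spread or kept their side of the threshold and 43 moved more. Part of the 217 could not move, such as means of within-litter differences and genes with 1 probe set under the mean of all probe sets. Litter differences were also the same value under other limits, where only their p-values could move. The 217 is therefore no measure of stability. For members the spread was that between mice of a genotype, and for list medians that between the medians of the litters. A sign other than the main one was taken by 32 of the 260, namely 7 genotype differences of members, 9 litter differences of members and 16 list medians. The causes were not tested.

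With 2 mice a group, small differences cannot be told from spread, and a gene near 6.5, such as Lratd2, has little signal over background.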
